A study of Mus musculus with 6 samples.

Results

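The 10 genes described here belong to TGF-beta and BMP signalling and were followed in Melan-a cells that received either siDicer, an siRNA against Dicer, or the control siRNA siScr. They are the ligands Tgfb2, Bmp2 and Bmp7, the receptors Tgfbr1, Acvr1, Bmpr2 and Acvr2a, the co-repressor Skil, and Id1 and Id3. The genes were chosen by name, with earlier results on these samples known. All 10 of the 10 had a value among the 7658 genes named in the table. Melan-a is an immortal, pigmented melanocyte line from C57BL/6 mice, so all samples come from a single line. Both groups were cultured in 200 nM of the phorbol ester TPA, which activates protein kinase C, and received 50 pmol of siRNA with a lipid reagent and magnetic particles. Each group has 3 Clariom D arrays, and replicates 1, 2 and 3 of both groups were at passages 47, 54 and 56. On timing the labels differ: 48 h in the titles, but new medium at 6 h and lysis a further 24 h later in the protocol.

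TGF-beta family ligands bind a complex of type II and type I receptor kinases on the cell surface. The type II receptor phosphorylates the type I receptor, which phosphorylates Smad proteins that enter the nucleus and regulate genes together with Smad4. TGF-beta and activin receptors act mainly through Smad2 and Smad3, and BMP receptors through Smad1, Smad5 and Smad9. Id genes are classical BMP target genes, and in melanocytes TGF-beta is known as an inhibitor of proliferation and of pigment production. Dicer cuts microRNA precursors into mature microRNAs, which recognise target transcripts mainly through their seed, bases 2 to 8.

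Some microRNA families are known regulators of receptors followed here: let-7 of Tgfbr1, the miR-17 family of Bmpr2 and the miR-15 and miR-16 family of Acvr2a. One mature sequence of each is shown (RefSeq, GRCm38.p6) with the seed in capitals, since the seed is the part that recognises targets. Neither target sites in the transcripts nor mature microRNA levels were analysed here.
mmu-let-7a-5p: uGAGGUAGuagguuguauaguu
mmu-miR-17-5p: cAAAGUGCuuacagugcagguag
mmu-miR-15a-5p: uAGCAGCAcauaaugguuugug
The seed of let-7a was shared by 11 mature mouse microRNAs in the RefSeq set, among them let-7b, let-7i and miR-98. The seed of miR-17 was shared by 7, among them miR-20a, miR-93 and miR-106b, and that of miR-15a by 10, among them miR-16, miR-195a and miR-497a.

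Median log2 signal was 4.63 to 4.68 per array, and the correlation between any pair of arrays was 0.993 to 0.997. The table holds clusters of chromosomes 1 to 4, so Dicer1, Tgfbr2 and Smad1 to Smad7 were not analysed here and the knockdown has no check in these data. Of the 19 listed melanocyte markers 4 had a value, and the melanosomal enzyme Tyrp1 (log2 12.68 to 12.96) and the transcription factor Pax3 (10.36 to 10.67) were strongly detected in all 6 arrays. The leukocyte marker Ptprc stayed at or below log2 2.86 and the keratinocyte marker Ivl at or below 4.09, while the keratinocyte marker Flg read 6.79 to 7.07 and the leukocyte markers Cd247 and Fcer1g read 5.23 to 5.34 and 4.98 to 5.35. Of the listed markers with a value, 5 of 8 leukocyte and 4 of 9 keratinocyte markers had a mean above the level used to leave out dim genes. The summed signal of the 5 fibroblast markers with a value was log2 10.81 to 11.11 in siDicer and 10.44 to 10.91 in siScr, most of it from fibronectin, and their part in the results was not tested. The summed signals of the keratinocyte, leukocyte and endothelial markers also overlapped between the groups.

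The receptor Tgfbr1 was lower in siDicer cells at every passage, and Bmp2, Id1, Id3 and Bmpr2 were lower by smaller amounts, while Acvr1 was higher. In all, 8 of the 10 genes had a lower mean in siDicer and 2 a higher one, where 54.5% of the 5360 tested genes were lower. Their median difference was log2 -0.14, against -0.0093 over all tested genes. With limma and no block, 0 of the 10 passed an adjusted p of 0.05, and 0.0187% of tested genes (1 gene) did. At an unadjusted p under 0.05 there were 4 lower and 1 higher of the 10, against 8.53% of tested genes, 3.92% lower and 4.61% higher. With the block these counts were again 4 and 1, against 13.8% of tested genes. With passage as a block 1 of the 10 passed, Tgfbr1, against 1.74% of tested genes, 0.597% of them lower and 1.14% higher.

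The groups did not overlap in 6 of the 10 genes, 5 lower and 1 higher in siDicer, where 14.5% of tested genes did not overlap (7.82% lower, 6.68% higher). The same 6 genes had the same direction at passages 47, 54 and 56, as did 36.1% of tested genes (20.0% lower, 16.1% higher). The genes were chosen with earlier results on these samples known, so these counts describe them and are no independent evidence of a direction. At 3 arrays against 3, with passage ignored, the smallest two-sided p that an exact permutation test of a single gene can give is 0.1. With the arrays paired by passage the smallest possible p is larger. The replicates are separate passages of a single line, and their spread may be technical.

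**Figure D1:**
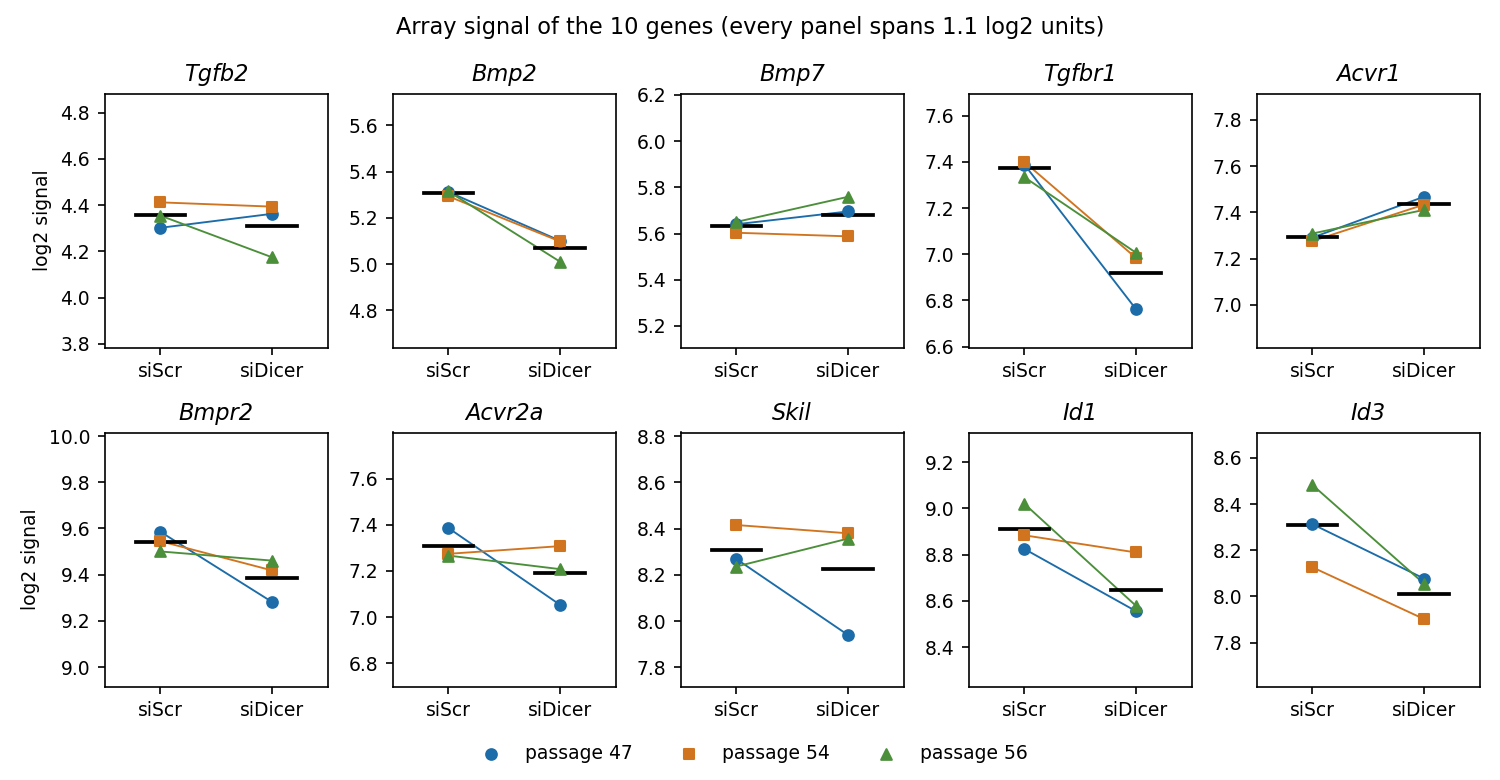
Log2 array signal (y axis) of each of the 10 genes in siScr and siDicer cells (x axis), with lines joining the 2 arrays of a passage and black bars at the group means (n = 3). Tgfbr1 and Bmp2 show the widest gaps between the groups, of log2 0.33 and 0.19, while Tgfb2, Bmp7, Acvr2a and Skil overlap.

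Among the receptors, Tgfbr1 had the largest difference. It encodes the type I receptor for TGF-beta (also called ALK5), the kinase that phosphorylates Smad2 and Smad3. Its log2 signal (transcript cluster TC0400000519.mm.1, chromosome 4) was 6.76, 6.98 and 7.01 in siDicer and 7.39, 7.40 and 7.33 in siScr at passages 47, 54 and 56. The siScr arrays lay within 0.066 of each other, and every siDicer array was at least 0.33 below them. The means were 6.92 ± 0.14 and 7.37 ± 0.035 (SD, n = 3), so the siDicer signal was 72.9% of that of siScr. Tgfbr1 thus fell by 0.46 ± 0.074 on the log2 scale (SE; limma with the passage block, adjusted p = 0.0344).

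In RNA from whole cultures, fewer cells that carry a transcript and less of it per cell cannot be told apart. The passages gave differences of -0.63, -0.42 and -0.33 for Tgfbr1, lower at each, with passage 47 furthest from 0. Without the block the standard error was 0.081 and the gene did not pass (limma, adjusted p = 0.128), although it ranked at place 19 of 5360 by p-value. With the block, leaving out passage 47 gave an adjusted p of 0.196 and leaving out passage 54 gave 0.112, while leaving out passage 56 gave 0.0156 (limma). A difference of this size or larger, in either direction, was found in 1.12% of tested genes.

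Acvr1 was the 1 receptor of the 4 with a higher signal in siDicer. It encodes a type I receptor for BMPs and activins (ALK2). Its log2 signal was 7.47, 7.43 and 7.41 in siDicer and 7.29, 7.28 and 7.31 in siScr at passages 47, 54 and 56. All siDicer arrays were above all siScr arrays, by at least 0.10, and both groups were tight (SD 0.029 and 0.016). The difference of 0.15 ± 0.059 (SE, limma, 95% interval 0.0086 to 0.28) did not pass over all genes, at an adjusted p of 0.570 without the block and 0.337 with it. It was 0.18, 0.16 and 0.10 at the 3 passages.

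Bmpr2 encodes the type II receptor that most BMPs use. The arrays read log2 9.28, 9.42 and 9.46 in siDicer and 9.59, 9.54 and 9.50 in siScr at passages 47, 54 and 56. The groups did not overlap, but the highest siDicer and the lowest siScr array were only 0.040 apart. The difference of -0.16 ± 0.072 (SE, limma, adjusted p = 0.631, 0.426 with the block) was -0.30 at passage 47, -0.13 at passage 54 and -0.040 at passage 56. Without siDicer replicate 1 it was -0.10.

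Acvr2a encodes a type II receptor for activins that BMPs also use. Log2 signals of 7.05, 7.31 and 7.21 in siDicer and 7.39, 7.27 and 7.27 in siScr were measured at passages 47, 54 and 56. The groups overlapped, and the siDicer array of passage 47 was the lowest. The difference of -0.12 ± 0.082 (SE, limma, adjusted p = 0.753, 95% interval -0.31 to 0.071) was -0.33 at passage 47, 0.033 at passage 54 and -0.059 at passage 56, and it was -0.051 without siDicer replicate 1. For Tgfbr1, Bmpr2, Acvr2a, Skil and Id1 alike the passage 47 siDicer array was the lowest of the 6.

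The start-site windows of Tgfbr1, Bmpr2 and Id3 are shown, each with 250 bases before and 50 bases after a RefSeq start (GRCm38.p6). They are the genes with a window that were lower at every passage with groups that did not overlap, although Bmpr2 and Id3 passed in neither fit and their differences were furthest from 0 at different passages. Capitals mark GGCGCC, a GC-rich element bound by BMP-activated Smads, and CAGAC or its reverse complement GTCTG, the short Smad-binding element, searched on both strands.
Tgfbr1 (chr4:47352972-47353271, plus strand): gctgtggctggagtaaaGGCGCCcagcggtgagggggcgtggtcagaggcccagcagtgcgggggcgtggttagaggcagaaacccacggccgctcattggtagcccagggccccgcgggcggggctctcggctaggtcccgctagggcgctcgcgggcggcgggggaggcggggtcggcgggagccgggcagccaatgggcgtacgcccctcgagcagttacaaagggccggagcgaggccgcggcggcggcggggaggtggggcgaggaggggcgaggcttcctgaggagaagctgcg
Bmpr2 (chr1:59764029-59764328, plus strand): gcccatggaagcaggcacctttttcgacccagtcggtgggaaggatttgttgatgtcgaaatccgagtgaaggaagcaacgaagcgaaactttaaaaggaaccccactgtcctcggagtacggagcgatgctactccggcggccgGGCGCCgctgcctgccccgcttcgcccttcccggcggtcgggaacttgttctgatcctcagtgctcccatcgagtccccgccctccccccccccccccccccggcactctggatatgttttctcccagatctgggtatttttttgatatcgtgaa
Id3 (chr4:136143572-136143871, plus strand): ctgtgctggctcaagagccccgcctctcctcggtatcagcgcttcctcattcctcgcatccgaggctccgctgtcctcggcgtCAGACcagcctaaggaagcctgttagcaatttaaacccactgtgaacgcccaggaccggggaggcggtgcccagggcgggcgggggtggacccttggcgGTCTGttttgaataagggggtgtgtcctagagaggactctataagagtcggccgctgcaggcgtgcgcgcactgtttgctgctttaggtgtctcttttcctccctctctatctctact
The Tgfbr1 and Bmpr2 windows each held 1 GGCGCC and 0 CAGAC, and the Id3 window held 0 GGCGCC and 2 CAGAC. Of all 32851 start-site windows, 11.9% held GGCGCC, 49.6% held CAGAC and 16.2% held CAGAC at 2 or more places. Windows were found for 6 of the 10 genes. The window of Acvr1 held neither motif, and those of Tgfb2 and Acvr2a held 2 and 1 CAGAC. Whether the motifs go with the direction of a difference was not tested. A second start of Tgfbr1, further inside the gene, had a window with 1 CAGAC. These matches describe letters in a window and not binding.

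Of the ligands, Bmp2 differed most between the groups. It encodes a BMP that signals through Smad1, Smad5 and Smad9 and induces Id genes. Its log2 signal was 5.10, 5.10 and 5.01 in siDicer and 5.31, 5.29 and 5.31 in siScr at passages 47, 54 and 56. The siScr arrays were within 0.021 of each other and all siDicer arrays were at least 0.19 below them. Its level was below the 50th percentile of mean signal. The leukocyte markers Cd247 and Fcer1g read in much the same range, at log2 5.23 to 5.34 and 4.98 to 5.35. Whether the Bmp2 signal is above background is unknown. The difference of -0.24 ± 0.055 (SE, limma, 95% interval -0.36 to -0.11) did not pass over all genes, at an adjusted p of 0.238 without the block and 0.115 with it, and had place 57 of 5360 by p-value. It was -0.21, -0.20 and -0.30 at the 3 passages, and the group means were 5.07 ± 0.052 and 5.31 ± 0.012 (SD, n = 3).

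Bmp7, another BMP, had a log2 signal of 5.70, 5.59 and 5.76 in siDicer and 5.64, 5.60 and 5.65 in siScr. The keratinocyte marker Lor read in much the same range, at log2 5.49 to 5.67, so whether the Bmp7 signal is above background is also unknown. The groups overlapped and the siDicer arrays had the wider spread (SD 0.087 and 0.025). The difference was 0.049 (limma, adjusted p = 0.899), with a 95% interval of -0.098 to 0.20 that covers changes in both directions.

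Tgfb2 encodes a TGF-beta isoform that needs the co-receptor betaglycan for high-affinity binding. The arrays read log2 4.36, 4.39 and 4.17 in siDicer and 4.30, 4.41 and 4.35 in siScr, close to the level of 4.15 below which genes were left out as dim. The groups overlapped, with the siDicer array of passage 56 lowest. The difference was -0.046 (limma, adjusted p = 0.919, 95% interval -0.21 to 0.12), and its sign turned to 0.022 without siDicer replicate 3.

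Skil encodes SnoN, a nuclear repressor of Smad-driven transcription that is itself a TGF-beta target gene. Its log2 signal was 7.94, 8.38 and 8.36 in siDicer and 8.27, 8.42 and 8.24 in siScr at passages 47, 54 and 56. The groups overlapped, and the siDicer array of passage 47 stood below the other 5. The differences of -0.33, -0.036 and 0.12 had no common direction, and the mean of -0.081 (limma, adjusted p = 0.919) turned to 0.062 without siDicer replicate 1.

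The Id proteins bind basic helix-loop-helix transcription factors and keep them off DNA. Id1 had a log2 signal of 8.56, 8.81 and 8.58 in siDicer and 8.82, 8.88 and 9.02 in siScr at passages 47, 54 and 56. The groups did not overlap, with a gap of only 0.015. The difference of -0.26 ± 0.092 (SE, limma, adjusted p = 0.457, 0.213 with the block) was -0.27, -0.074 and -0.44 at the 3 passages, so passage 54 differed least.

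Id3 had a log2 signal of 8.08, 7.90 and 8.06 in siDicer and 8.31, 8.13 and 8.48 in siScr at passages 47, 54 and 56. The groups did not overlap, with a gap of 0.049, and in both of them the array of passage 54 was the lowest. The difference of -0.30 was -0.24, -0.22 and -0.43 at the 3 passages. Its standard error was 0.10 without the block and 0.069 with it, and it passed in neither fit (limma, adjusted p = 0.452 and 0.105). The siDicer signals were 83.4% and 81.5% of those of siScr for Id1 and Id3.

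**Figure D2:**
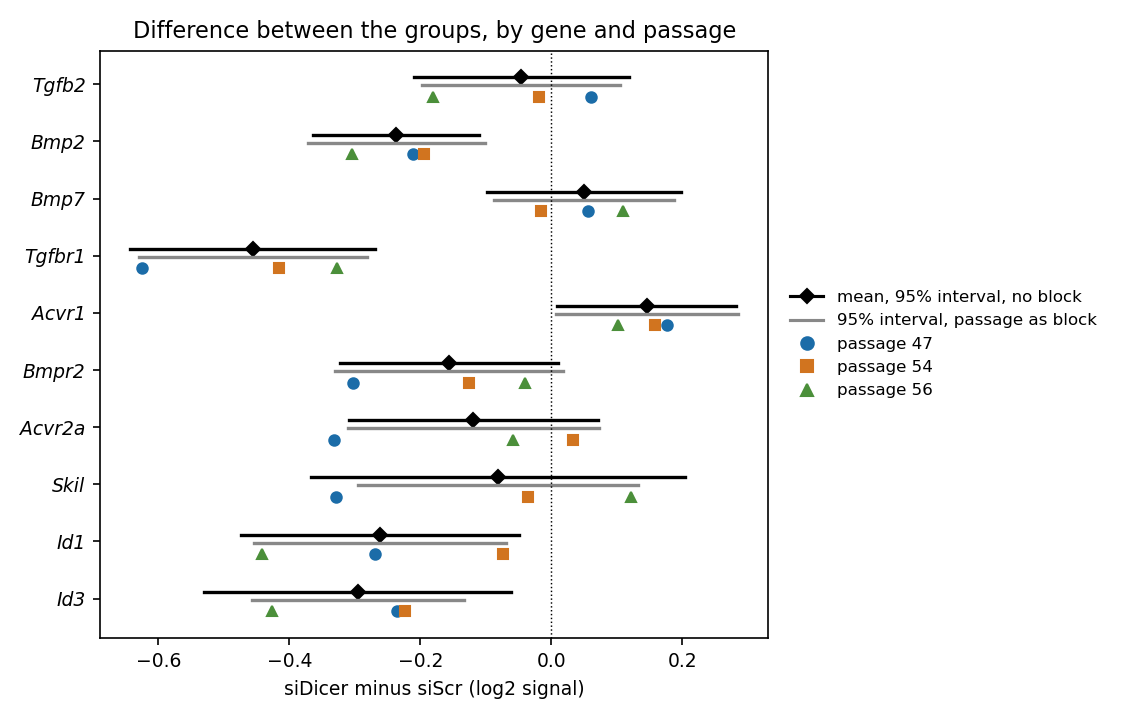
Difference in log2 signal, siDicer minus siScr (x axis), for each gene (y axis), with the mean and 95% interval of the limma fit without a block (black), the interval with passage as a block (grey) and the value at each passage (coloured). Tgfbr1 lies furthest from 0, at -0.46, and Acvr2a, Skil, Tgfb2 and Bmp7 have passages on both sides of 0.

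The passages did not order the genes alike. The difference furthest from 0 was at passage 47 for the 4 receptors and Skil, and at passage 56 for the 3 ligands, Id1 and Id3. Over the 10 genes the median difference was -0.25 at passage 47, -0.055 at passage 54 and -0.12 at passage 56, and 7, 8 and 7 of the 10 were lower. Over all tested genes the medians were -0.0048, -0.0021 and -0.019. Each passage has 1 array in each group, so these values have no error of their own and their order was not tested.

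Among siScr arrays alone, Id3 varied most over the passages, by log2 0.36, followed by Id1 (0.20) and Skil (0.18). Bmp2 (0.021), Acvr1 (0.033), Bmp7 (0.047) and Tgfbr1 (0.066) varied least. The range of siDicer arrays was wider than that of siScr arrays in every gene except Id3, and was largest for Skil (0.44) and smallest for Acvr1 (0.057).

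The rest of the pathway was read from a list of 141 genes in 5 roles, of which 38 passed the filter on dim genes, the 10 above included. Passing it does not show expression, since 5 of 8 leukocyte and 4 of 9 keratinocyte markers also passed. Of the genes named below, Gdf5, Gdf6, Lefty2, Cfc1, Hey1 and Hjv read only log2 4.68 to 5.49. With limma and no block 0 of the 38 passed, with 5 lower and 3 higher at an unadjusted p under 0.05, where 3.92% of all tested genes were lower and 4.61% higher. Among the 28 genes outside the 10 these counts were 1 lower and 2 higher. With passage as a block 1 fell (Tgfbr1) and 2 rose (Pmepa1 and Thbs1), where 0.597% of all tested genes fell and 1.14% rose. The 28 tested genes outside the 10 were 16 higher and 12 lower, where 54.5% of all tested genes were lower. Their median difference was 0.010.

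Pmepa1, a transmembrane protein induced by TGF-beta that binds Smad2 and Smad3 and limits their activation, rose in siDicer cells. Its log2 signal was 8.06, 8.07 and 8.12 in siDicer and 7.62, 7.62 and 7.85 in siScr at passages 47, 54 and 56. The groups did not overlap, with the siScr array of passage 56 nearest to siDicer. The difference was 0.38 ± 0.067 with the passage block (SE; limma, adjusted p = 0.0412), and without it the adjusted p was 0.221. With the block it was not past the threshold without passage 47 (limma, adjusted p = 0.247) or without passage 54 (0.197).

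Thbs1, the matrix protein thrombospondin 1, which can activate latent TGF-beta, had the largest difference of the list. The arrays read log2 9.11, 9.90 and 9.14 in siDicer and 8.44, 9.15 and 8.25 in siScr at passages 47, 54 and 56. The groups overlapped, since passage 54 was the highest in both, but the differences at the passages were alike at 0.67, 0.76 and 0.89. It rose by 0.77 ± 0.071 with the passage block (SE; limma, adjusted p = 0.00653), with an adjusted p of 0.459 without the block and 0.0534 with the block but without passage 47. Without the block and without siDicer replicate 2 the difference was 0.51.

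The other 8 tested ligands were 5 higher and 3 lower, and 0 passed in either limma fit, with 0 and 1 (Inhbb) at an unadjusted p under 0.05 without and with the block, against 8.53% and 13.8% of all tested genes. Inhbb, the activin beta B subunit, differed by 0.27 and the growth and differentiation factor Gdf6 by 0.13. Gdf5 differed by -0.11, and Lefty2, an inhibitor of Nodal signalling, by -0.13. With limma and passage as a block their adjusted p-values ran from 0.226 for Inhbb to 0.473 for Gdf5. Inhbb was at 0.085 without siDicer replicate 2, Gdf6 at 0.084 without siDicer replicate 1 and Lefty2 at -0.070 without siScr replicate 2.

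Of the 3 other tested receptors and co-receptors none passed in limma, with or without the block. At an unadjusted p under 0.05 there were 1 without the block (Hjv) and 2 with it (Hjv and Eng), against 8.53% and 13.8% of all tested genes. The BMP co-receptor Hjv differed by -0.14 and Cfc1, a co-receptor for Nodal, by 0.045. Eng, endoglin, a TGF-beta and BMP co-receptor, had a log2 signal of 8.80 and 8.30 in siDicer and siScr at passage 47, and 7.02 to 7.42 in the other 4 arrays. Its level thus went with the passage more than with the siRNA, and its difference of 0.29 (limma with the passage block, adjusted p = 0.152) was 0.50, 0.22 and 0.16 at the 3 passages. Without the block it turned to -0.21 without siDicer replicate 1, and that of Cfc1 to -0.012 without siScr replicate 1.

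The Smad proteins and their regulators other than Skil were 6 higher and 4 lower of 10. With the block 1 passed in limma (Pmepa1), against 1.74% of all tested genes. At an unadjusted p under 0.05 there was 1 without and 1 with the block, against 8.53% and 13.8% of all tested genes. Smad9, which carries BMP signals, differed by -0.12, the co-repressor Tgif2 by 0.13, the co-activator Wwtr1 (TAZ) by -0.087 and the Smad phosphatase Ctdsp1 by 0.073. Leaving out a single array changed each of these 4 by over 1.5 times: Smad9 was at -0.052 without siScr replicate 3, Tgif2 at 0.060 and Ctdsp1 at 0.020 without siDicer replicate 1, and Wwtr1 at -0.026 without siDicer replicate 3. Nbl1, a secreted BMP antagonist, differed by -0.032, with a sign that turned without siDicer replicate 3 (0.00086). The target genes other than Id1 and Id3 were 2 higher and 3 lower, and 0 of the 5 passed in limma with or without the block, with 0 and 1 (Snai1) at an unadjusted p under 0.05, against 8.53% and 13.8% of all tested genes, so the count says nothing particular of these genes. Among them Snai1, a repressor of epithelial genes, differed by -0.15, the cell cycle inhibitor Cdkn2b by 0.12, the matricellular protein Ccn1 by 0.15 and Hey1 by -0.041. With 1 array left out and no block Snai1 ranged from -0.23 (siScr replicate 3) to -0.085 (siDicer replicate 3) and Cdkn2b from 0.038 (siDicer replicate 2) to 0.17 (siDicer replicate 3), and the signs of Ccn1 and Hey1 turned. At passages 47, 54 and 56 Ccn1 differed by 0.032, 0.26 and 0.15, and Hey1 by 0.13, -0.0024 and -0.25.

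**Figure D3:**
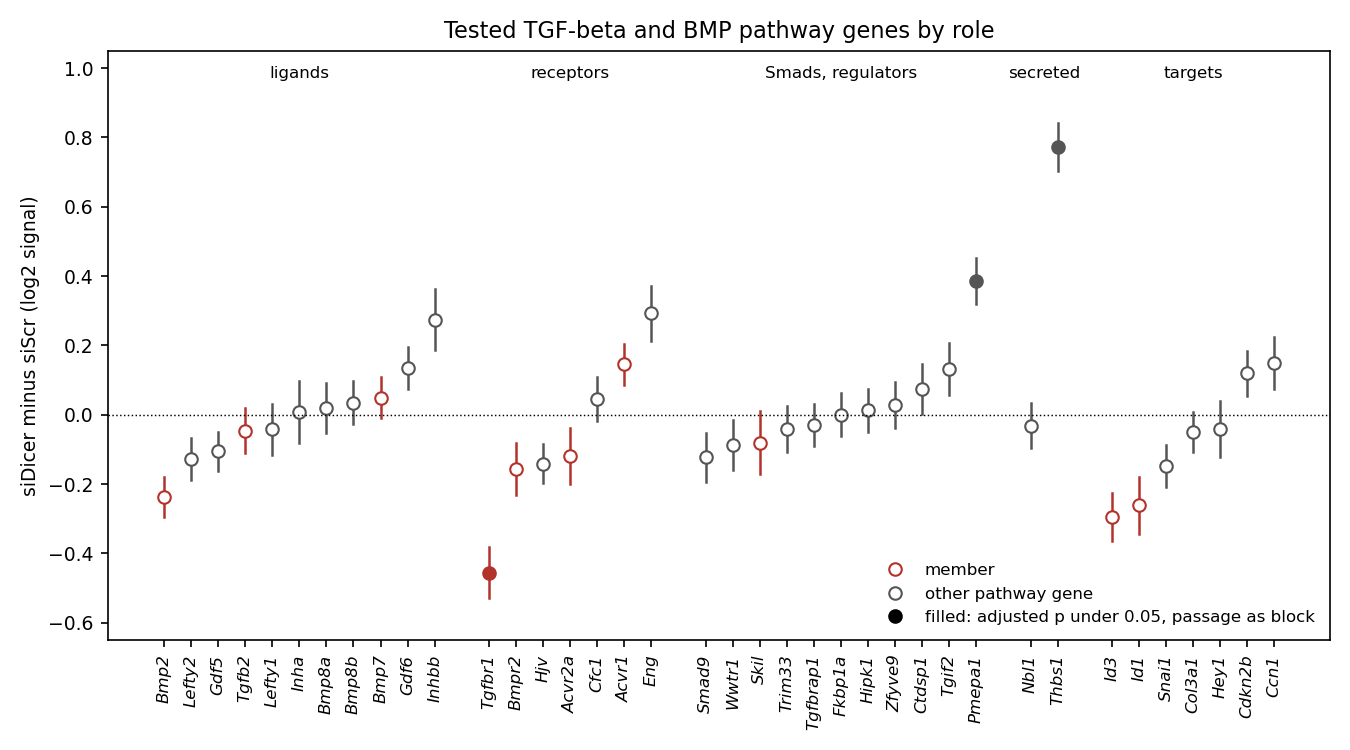
Difference in log2 signal, siDicer minus siScr (y axis), of the 38 tested pathway genes (x axis) grouped by role, with bars of 1 standard error from the limma fit with passage as a block. Filled points passed an adjusted p of 0.05 in that fit, which were Tgfbr1 at -0.46, Pmepa1 at 0.38 and Thbs1 at 0.77, and red points are the 10 genes followed here.

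Over the 6 arrays, the 5 tested genes whose signal followed that of Tgfbr1 most closely were Zbtb10, Gm13363, Rlf, Suco and Txn1, with Pearson correlations from 0.982 to 0.992. Their differences ran from log2 -0.50 for Suco to -0.17 for Txn1. For Id3 they were Uap1l1, Zcchc17, Dlx2, Slc44a3 and Dmrta1, with correlations from 0.976 to 0.994 and differences from -0.36 for Uap1l1 to -0.087 for Dlx2. A correlation over 0.95 with Tgfbr1 was found in 29 tested genes and with Id3 in 21. With 6 arrays and 5360 genes such values are a description only, and the arrays share their groups and passages.

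**Figure D4:**
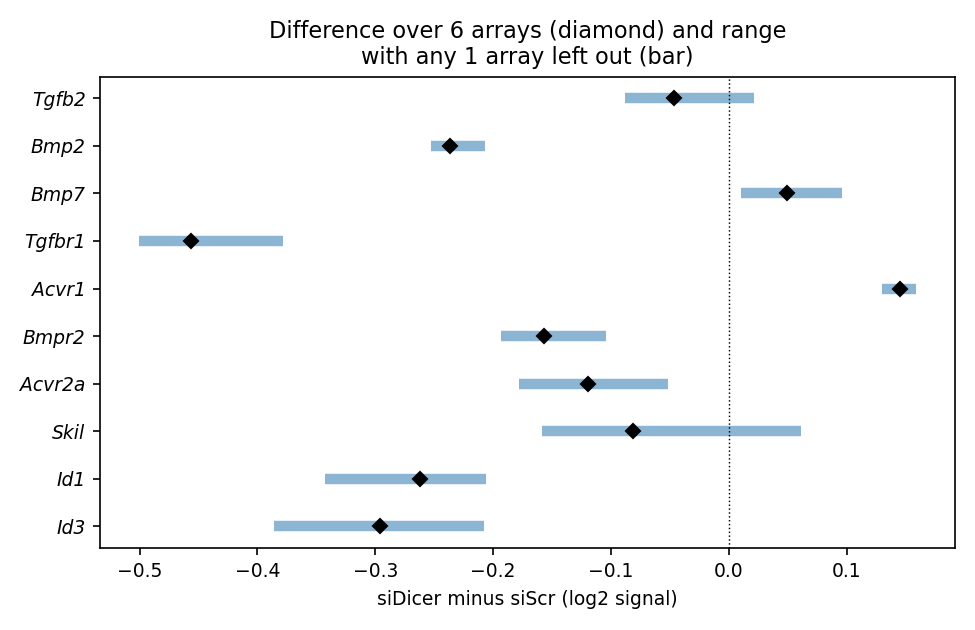
Difference in log2 signal, siDicer minus siScr (x axis), of each gene (y axis) over all 6 arrays (diamond) and its range when any 1 array is left out (bar). Tgfbr1 stays between -0.50 and -0.38 and Bmp2 between -0.25 and -0.21, while the bars of Tgfb2 and Skil cross 0.

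Leaving out any 1 array kept Tgfbr1 between -0.50 and -0.38, Bmp2 between -0.25 and -0.21, Id1 between -0.34 and -0.21, Id3 between -0.39 and -0.21 and Acvr1 between 0.13 and 0.16. The differences of the other 5 genes moved by over 1.5 times, and those of Tgfb2 and Skil crossed 0. Of the 10 genes 0 passed in limma without the block in any of these 6 fits, where the adjusted p of Tgfbr1 ran from 0.212 to 0.423.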

How the data were processed

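RNA of 6 Melan-a samples, 3 siDicer and 3 siScr, was measured on Clariom D mouse arrays from 100 ng of total RNA, with an RNA integrity number of 10.0 in each. The deposited values are log2 signals per transcript cluster, which the authors had already put on a common scale; log2 was inferred from the range of 1.70 to 13.70. Per the submitters' processing notes the tool was Affymetrix Expression Console; version, summarisation method and build: not given in the sources used here. Scanner files were not used here, so signal over background is unknown; the small number of arrays limits precision.

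The table has 16383 clusters, of which the platform annotation gave 7715 to 1 gene, 270 to several and 8398 to none. Names were brought up to date through RefSeq, and 0 of the 10 genes had more than 1 cluster; for other genes the cluster with the highest mean was used. Genes under the 30th percentile of mean signal (log2 4.15) were left out as dim. Groups were compared in R 4.3.3 with limma 3.58.1 (lmFit, eBayes with trend), two-sided, with Benjamini-Hochberg adjustment over all 5360 tested genes, threshold 0.05. The fit without a block was tested on simulated data with no passage effect and with changes larger than those of the 10 genes. That test did not cover smaller changes or the fit with the block. SDs are over 3 arrays.

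The main fit had no block. In the labels same-numbered samples of both groups have the same passage, so the numbers pair the samples; deviations from the group means correlated at 0.42, 0.62 and 0.070 for passages 47, 54 and 56. Alternatives were passage as a block, other filters and normalisations, array weights, eBayes without the trend, the mean of a gene's clusters, and each array left out. The members and lists were chosen with earlier results of these data known. Pathway genes were named if they passed in either fit, and otherwise up to 4 per role by smallest p. The fits with the block that leave out a passage were chosen after seeing the data.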

Additional observations from a re-analysis of the deposited data

How the results depend on the processing

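With passage as a replicate block 93 genes passed (61 higher, 32 lower), against 1 in the fit without it, and 14 passed with array weights. With 1 array left out the count ran from 0 (siDicer replicate 3 left out) to 2 (siScr replicate 2 left out). With the block and without passage 47, 54 or 56 it was 3, 19 and 155. Of the 10 genes, 1 passed with the block and 1 with the block without passage 56, in both cases Tgfbr1, and 0 under the other alternatives. Of the pathway list, 3 genes passed with the block, 1 without passage 54 and 3 without passage 56. The causes were not tested. The block changed no other call among the 10 genes and the other pathway genes named. Of the 10 genes, 8 kept their direction under all 14 planned and 3 added alternatives that could be run. Several of these could not turn a sign, since they leave the differences of the 10 genes unchanged. They are the block over all 6 arrays, the other filters, eBayes without the trend and the mean of a gene's clusters. Tgfb2 turned to 0.022 without siDicer replicate 3 and to 0.021 with the block without passage 56, and Skil to 0.062 without siDicer replicate 1 and to 0.043 with the block without passage 47. Tgfb2 and Bmp2 were below the 50th percentile and have no value under that filter. With 1 array left out Tgfb2 ranged from -0.088 to 0.022 and Skil from -0.16 to 0.062. The sign also turned in other genes that did not pass, with ranges of -0.012 to 0.092 for Cfc1, -0.21 to 0.69 for Eng, -0.075 to 0.00086 for Nbl1, -0.11 to 0.35 for Ccn1 and -0.12 to 0.052 for Hey1, and with the block without 1 passage for Cfc1 (-0.0042), Nbl1 (0.026) and Hey1 (0.063).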
